A study of Mus musculus with 4 samples.

Results

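The regions described here are the peaks of an XBP1s ChIP-seq experiment that the authors' annotation placed on a CpG island outside any promoter, exon or untranslated region. They were chosen as every peak whose detailed annotation in the deposited peak table begins with "CpG", which gave 472 of 4890 listed peaks (9.65%, 95% exact binomial interval 8.84% to 10.5%). Of these, 457 read "CpG" alone and 15 carry an island number after it. The basic annotation of the 472 was intron for 379 (80.3%) and intergenic for 93 (19.7%), and none was centred between 1000 bp upstream and 100 bp downstream of the nearest transcription start site (TSS), the stretch that the annotator reserves for promoters. That gap is a property of the annotation, and nothing is read from it.

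The cells were natural killer (NK) cells isolated from mouse spleen, of strain C57BL/6 by one label and from Il15TgXbp1f/f mice by the series design. No Cre is named there, so both groups share the Il15 transgene and the loxP-flanked Xbp1 alleles, and both were treated with IL-15 at 50 ng/ml for 1 h. The 4 libraries are 2 immunoprecipitations with an antibody against XBP1s and 2 inputs. They were deposited as 1 combined list of intervals on mm10, with no value for any single library: no replicate error can be given, the depth is unknown, and no library can be compared with another. The score column is 0 for every peak, so the width of an interval is the only quantity per peak, and width is not a measure of signal.

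CpG islands are stretches of DNA that are rich in G and C and keep the CG dinucleotide, which is depleted elsewhere in mammalian genomes by methylation and decay. Most lie over promoters, typically of broadly expressed genes, and extend past the TSS into the first exon and intron, while others lie inside or between genes, where some mark start sites of unannotated or long noncoding transcripts. XBP1s is the transcription factor made when the endoplasmic reticulum (ER) stress sensor IRE1 splices Xbp1 mRNA. It activates genes for protein import, folding, export and degradation at the ER, and the elements known for it contain the core ACGT or the letters CCACG, both of which hold a CG.

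The sequences below are shown because they carry the longer elements of the ER stress response that were found under the peaks. Reference sequence was available as RefSeq windows of 300 bp around start sites (GRCm38.p6, the assembly of mm10). Of the 460 peaks on chromosomes with such windows, 161 overlapped at least 1 (35.0%). The nearest gene had a window for 374 of the 472 peaks (79.2%). The listed starts of Tram1, Ube2g2 and Derl1, for example, had none and were not searched. A peak without a match is thus not shown to lack these elements. In these windows, 8 peaks held either the gapped ER stress element (CCAAT and CCACG 9 bases apart, on either strand) or the unfolded protein response element TGACGTGG. The 3 gapped matches lay under the peaks of Canx, Pdia6 and Gm6793, and the 5 matches of TGACGTGG under those of Sec24d, Lrrc59, Smim14, Copb1 and Mga. Each line gives the 200 bases before a RefSeq start, 5' to 3' on the strand of the gene, with the match in capitals. The Copb1 match is on the reverse strand and reads as CCACGTCA. In the last line, for the noncoding gene Gm38882, the capitals mark every CG, 29 in all.
Canx: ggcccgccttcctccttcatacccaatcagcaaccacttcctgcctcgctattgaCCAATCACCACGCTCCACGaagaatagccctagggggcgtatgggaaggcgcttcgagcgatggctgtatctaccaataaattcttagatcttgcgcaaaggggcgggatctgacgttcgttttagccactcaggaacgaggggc
Pdia6: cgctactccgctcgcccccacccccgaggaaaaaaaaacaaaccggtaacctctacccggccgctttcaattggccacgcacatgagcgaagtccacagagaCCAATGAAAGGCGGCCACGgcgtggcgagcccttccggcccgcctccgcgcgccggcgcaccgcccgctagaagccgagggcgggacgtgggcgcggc
Gm39859: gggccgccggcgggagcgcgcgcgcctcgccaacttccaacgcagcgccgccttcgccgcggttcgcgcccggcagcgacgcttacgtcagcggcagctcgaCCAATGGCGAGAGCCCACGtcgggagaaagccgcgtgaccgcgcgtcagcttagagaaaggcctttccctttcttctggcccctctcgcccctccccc
Sec24d: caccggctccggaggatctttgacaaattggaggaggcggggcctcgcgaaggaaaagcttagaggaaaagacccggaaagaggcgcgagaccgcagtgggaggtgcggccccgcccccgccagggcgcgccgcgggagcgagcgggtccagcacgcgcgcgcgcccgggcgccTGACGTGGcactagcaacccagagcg
Lrrc59: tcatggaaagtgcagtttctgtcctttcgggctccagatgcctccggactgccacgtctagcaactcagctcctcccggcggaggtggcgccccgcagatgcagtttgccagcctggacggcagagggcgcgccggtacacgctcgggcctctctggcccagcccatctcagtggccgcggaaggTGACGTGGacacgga
Copb1: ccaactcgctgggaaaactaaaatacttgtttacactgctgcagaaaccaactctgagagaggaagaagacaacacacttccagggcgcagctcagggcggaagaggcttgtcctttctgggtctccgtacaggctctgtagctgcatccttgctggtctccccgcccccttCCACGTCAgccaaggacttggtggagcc
Mga: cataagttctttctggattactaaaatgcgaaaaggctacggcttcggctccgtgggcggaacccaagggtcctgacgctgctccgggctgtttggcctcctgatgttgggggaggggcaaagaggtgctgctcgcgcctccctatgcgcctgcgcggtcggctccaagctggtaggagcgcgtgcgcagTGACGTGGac
Gm38882: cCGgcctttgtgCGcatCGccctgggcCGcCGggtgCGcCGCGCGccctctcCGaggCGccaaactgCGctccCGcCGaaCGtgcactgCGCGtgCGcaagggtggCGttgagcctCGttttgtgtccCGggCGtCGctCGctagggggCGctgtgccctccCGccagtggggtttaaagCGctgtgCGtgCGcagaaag

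By position, these stretches are chr11:50325674-50325873 for Canx (minus strand), chr12:17266389-17266588 for Pdia6 (plus), chr2:75658938-75659137 for Gm39859 (minus), chr3:123267296-123267495 for Sec24d (plus), chr11:94629577-94629776 for Lrrc59 (plus), chr7:114254681-114254880 for Copb1 (minus), chr2:119897028-119897227 for Mga (plus) and chr6:117879433-117879632 for Gm38882 (plus). The Mga stretch lay inside its peak for 167 of its 200 bases and the other 7 for all 200. The gapped match ran from 145 to 127 bases before the Canx start and from 98 to 80 bases before the starts of Pdia6 and Gm39859. Gm39859 is the noncoding gene that starts under the peak listed for the pseudogene Gm6793, and the same match lies 242 to 224 bases before the start of Hnrnpa3, a gene for an RNA-binding protein read in the other direction. The TGACGTGG match ended 19 bases before the start of Sec24d, 8 before Lrrc59, 21 before Copb1 and 3 before Mga, and lay 26 to 33 bases after one annotated start of Smim14, which is 146 to 139 bases before another. All of these matches were inside the listed interval.

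The peaks sat in a narrow zone just downstream of gene starts. Of the 472, 333 (70.6%, interval 66.2% to 74.6%) had their centre within 1000 bp of the TSS, all of them downstream and in an intron, 269 between 100 and 500 bp and 64 between 500 and 1000 bp. Among the 1173 intron and intergenic peaks without the CpG label, 151 (12.9%, 11.0% to 14.9%) lay within 1000 bp. The label was therefore carried by 78.9% of the intron and intergenic peaks between 100 and 500 bp downstream, 44.8% of those between 500 and 1000 bp, 19.2% between 1000 and 2000 bp and 5.88% between 2000 and 5000 bp. On the upstream side it was carried by 29.7% of the peaks between 1000 and 5000 bp and by 11.3% of those farther away. Beyond 5000 bp downstream the share was 7.06%. The plot of peak centres around the start site shows the CpG island peaks falling off over a short distance, while the other peaks spread farther into the gene. Most CpG islands lie at gene starts and reach into the first intron, so the label itself favours this zone. Where all islands lie was not counted, and nothing is read from the contrast with peaks without the label.

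**Figure D1:**
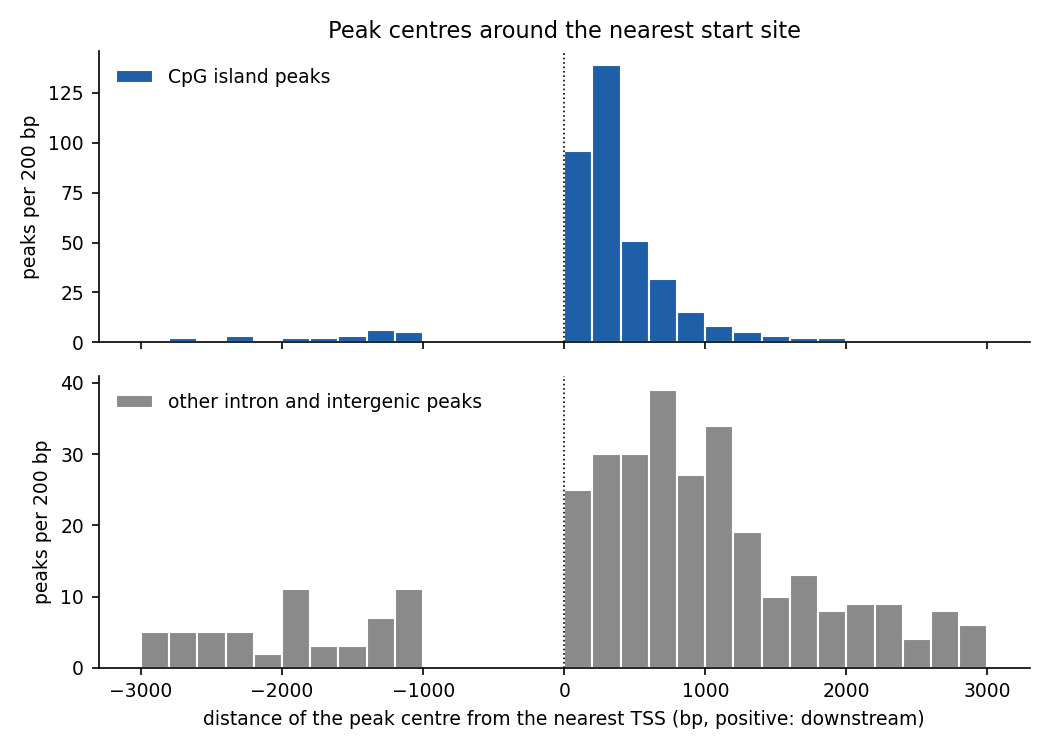
Number of peak centres per 200 bp (vertical axis) by distance from the nearest TSS (horizontal axis, bp, from 3000 upstream to 3000 downstream), for the CpG island peaks (top) and the other intron and intergenic peaks (bottom). The empty stretch from 1000 upstream to 100 downstream is where the annotation calls a peak a promoter peak; the CpG island peaks pile up directly after it.

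Nearly all intronic CpG island peaks were in the first intron of the transcript named by the annotation, 358 of 379 (94.5%, 91.7% to 96.5%), against 370 of 658 other intron peaks (56.2%, 52.3% to 60.1%). The label favours the first intron as it favours the zone after the start, so nothing is read from this contrast. Distance goes with the share in intron 1: within 1000 bp it was 326 of 333 (97.9%), and among the 46 intronic peaks farther out it was 32 (69.6%, 54.2% to 82.3%). The exceptions included the fourth intron of Mnt, which encodes a MAX-binding repressor, the sixth of Mia3 and the fourth of Arid1b. In 10 of the 379 the gene holding the intron was not the gene with the nearest TSS. The peak nearest to Mir15a, for example, was in intron 1 of Dleu2, the noncoding host gene of that microRNA, and the peak nearest to Galk1 was in intron 32 of Itgb4.

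Although centred in introns, many of these intervals reached back over the gene start. The interval covered the TSS in 140 of the 333 peaks within 1000 bp (42.0%, 36.7% to 47.5%), against 41 of the 151 other peaks in that window (27.2%, 20.2% to 35.0%). The 2 groups were not at the same distance: their centres had medians of 275 bp and 541 bp. The middle of the upstream edges lay 34 bp after the TSS and that of the downstream edges 542.5 bp after it, compared with 280 bp and 802 bp for the other peaks. The position most often covered was 200 bp downstream, by 73.6% of the CpG island peaks. For the other peaks it was 550 bp downstream, with 49.0%, and for the 2571 promoter peaks 25 bp upstream, with 77.7%. The order of promoter and CpG island peaks in the plot of peak span follows from where the annotation allows their centres to lie, and nothing is read from it. Since every one of these peaks is centred over 100 bp from the TSS, only an interval wider than 200 bp can cover it. A centre farther out needs a wider interval still. Coverage of the TSS was not compared at matched distance, so nothing is read from the contrast with the other peaks.

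**Figure D2:**
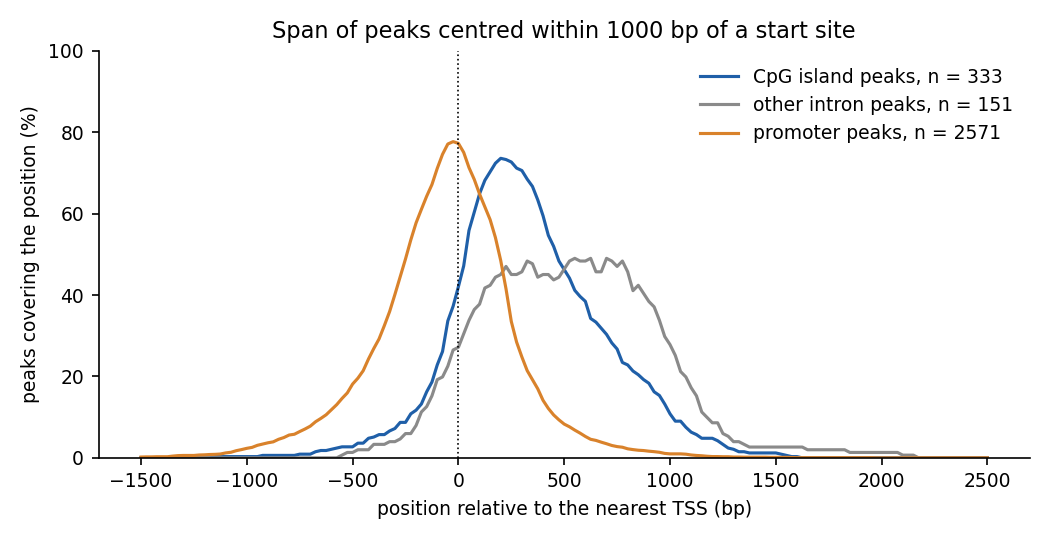
Share of peaks covering each position (vertical axis, %) relative to the nearest TSS (horizontal axis, bp), for 333 CpG island peaks and 151 other intron peaks centred within 1000 bp of the TSS and for 2571 promoter peaks. The CpG island curve reaches 42.0% at the TSS and its highest point, 73.6%, at 200 bp downstream.

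By median width, the CpG island peaks were close to promoter peaks and above the whole list. Their median width was 409.5 bp (95% interval 374 to 434, quartiles 253.5 and 644.5, range 8 to 2785), against 311 bp (300 to 318) for the other intron and intergenic peaks, 404 bp for promoter peaks and 373 bp for all listed peaks. Much of the gap to the other peaks went with distance. Between 100 and 500 bp the medians were 462 bp (269 peaks) and 430 bp (72 peaks), and between 500 and 1000 bp 338.5 and 331 bp. Peaks of 1000 bp or wider made up 12.3% (8.60% to 16.8%) of the CpG island peaks between 100 and 500 bp and 18.1% (9.98% to 28.9%) of the others there, so at matched distance the intervals overlap. Beyond 1000 bp the medians were 338 bp (307 to 378) and 304 bp (294 to 313), but between 1000 and 5000 bp upstream the CpG island peaks were the narrower, with 263.5 bp (38 peaks) against 310.5 bp (90 peaks). In total 45 of the 472 reached 1000 bp, while 11 were under 100 bp, the shortest being an interval of 8 bp in the first intron of Ube2g1. No source used here says how intervals this short arose.

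**Figure D3:**
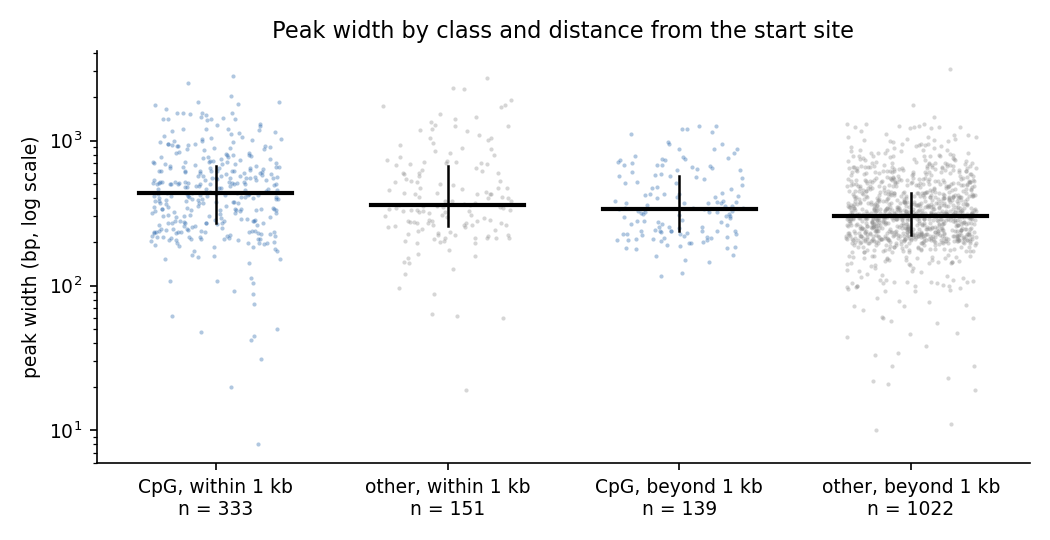
Width of each peak (vertical axis, bp, log scale) for CpG island peaks (blue) and other intron and intergenic peaks (grey), centred within or beyond 1000 bp of the TSS; points are peaks, thick lines medians and thin lines quartiles. The medians are 435, 359, 338 and 304 bp from left to right, and the clouds overlap widely.

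The widest peaks near a start site were headed by genes of the ER. The 3 widest were at Canx, which encodes the lectin chaperone calnexin (2785 bp, chr11:50324050-50326834, centred 231 bp downstream), at Gm6793 (2508 bp, chr2:75658347-75660854, in intron 1 of Hnrnpa3) and at Pdia6, a protein disulfide isomerase (2024 bp, chr12:17265837-17267860). They were followed by Tram1 and Ssr1, parts of the channel for proteins entering the ER (1857 and 1838 bp), and Rpn1, a subunit of the oligosaccharyltransferase (1777 bp). Next came Nktr, a cyclophilin-related protein (1775 bp), and Hdlbp, an RNA-binding protein (1657 bp). After them were Ube2g2, a ubiquitin-conjugating enzyme of ER-associated degradation (1559 bp), and Smim14, a small membrane protein (1544 bp). Ranbp2, a nuclear pore protein (1543 bp), and Sec24d, a cargo adaptor of COPII vesicles (1540 bp), completed the 12 widest. All 12 were in intron 1, centred from 130 bp (Hdlbp) to 609 bp (Tram1) downstream of the TSS.

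The nearest genes were next read by function. A gene was counted when it was the nearest gene of a CpG island peak within 5000 bp of its TSS. Over all 21896 protein-coding genes, 380 (1.74%) were, and 3486 (15.9%) had any listed peak by the same rule. Of the 3486, 10.9% had a CpG island peak. Of 136 genes in 4 lists for ER import, folding, degradation and ER to Golgi transport, 118 had any peak and 19 had a CpG island peak, which is 16.1% of the 118 (9.98% to 24.0%). The interval holds the 10.9% found over all genes with a peak, so these counts show no difference in how often the peaks of ER genes carry the label. The plot of gene lists gives both counts for each list.

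**Figure D4:**
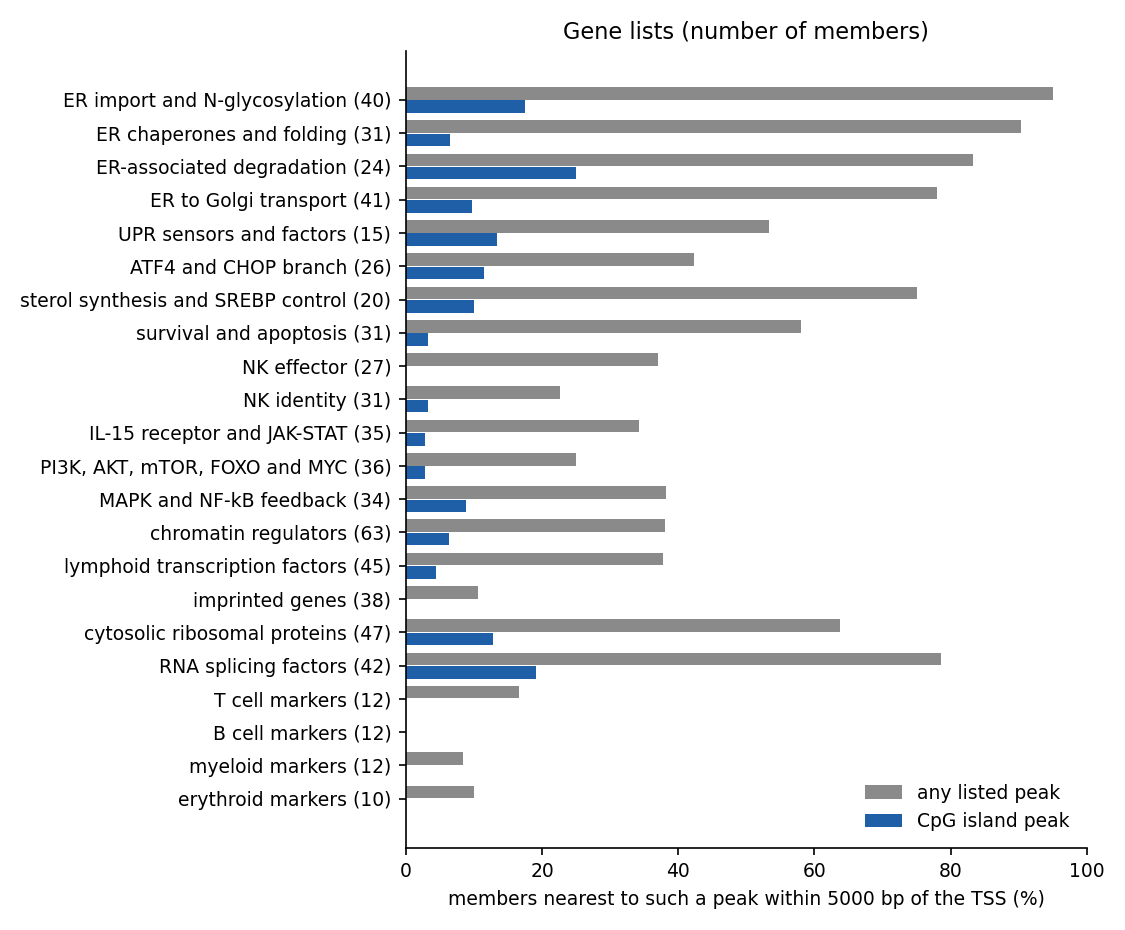
Share of each gene list (horizontal axis, %) that is the nearest gene of any listed peak (grey) or of a CpG island peak (blue) within 5000 bp of the TSS, with the number of genes in parentheses. The 4 ER and secretory lists stand at 78.0% to 95.0% for any peak and at 6.45% to 25% for CpG island peaks.

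For protein entry into the ER and N-glycosylation, 7 of 40 genes had a CpG island peak. That is 18.4% of the 38 with any listed peak, beside 10.9% over all genes with a peak. Besides Tram1, Ssr1 and Rpn1, these were Sec63 (1421 bp), a partner of the import channel, Sec61a1 (1395 bp), the channel itself, Srp9 (890 bp), a protein of the signal recognition particle, and Alg14 (330 bp), which acts early in making the glycan precursor. For chaperones and folding it was 2 of 31, Canx and Pdia6, which is 7.14% of the 28 with any listed peak. For ER-associated degradation it was 6 of 24, which is 30% of the 20 with any listed peak. Ube2g2 was followed by Derl1 (1028 bp), a candidate channel component for retrotranslocation, Vcp (513 bp), the ATPase that pulls proteins from the membrane, and its partners Faf2 (454 bp), Nploc4 (283 bp) and Ubxn4 (31 bp). For ER to Golgi transport it was 4 of 41, which is 12.5% of the 32 with any listed peak. These were Sec24d, Tmed2, a cargo receptor (1420 bp), Kdelr2, which retrieves ER proteins (1307 bp), and Copb1, a COPI coat subunit (771 bp). With 2 to 7 genes per list, no difference between the lists is read from these shares.

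The 19 CpG island peaks at these ER genes lay within 1000 bp of the TSS and had a median width of 1395 bp (quartiles 642 and 1668, lowest 31), against 424 bp (262.5 and 631.75) for the 314 at other genes. Of the 19, 15 covered the TSS and 12 were 1000 bp or wider, while 27 of the 314 (8.60%) were that wide. ER genes supplied 6 of the 10 widest of all 472, 9 of the 20 widest and 1 of the 118 below the lower quartile, the Ubxn4 interval. The same contrast was present in promoter peaks, where 73 at ER genes had a median of 1062 bp and 2498 at other genes 400 bp. It is thus shared with peaks that do not carry the label.

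The sensors and factors of the unfolded protein response had 2 of 15, both narrow: Mbtps1 (268 bp), the protease that activates ATF6, and Nfe2l2 (254 bp, centred 994 bp downstream), the NRF2 gene. Outside the window, Creb3l1, an ER-anchored factor, had its peak 15766 bp downstream in intron 1. Xbp1 itself was not the nearest gene of any CpG island peak at any distance. Whether Xbp1 had a peak with another label is not described here. Among genes of the ATF4 and CHOP branch it was 3 of 26, the arginine transporter Slc7a1 (892 bp), the folate enzyme Mthfd2 (262 bp) and asparagine synthetase Asns (205 bp). Of 20 sterol and lipid genes, Hmgcs1 (272 bp), an early enzyme of cholesterol synthesis, and Fasn (87 bp), fatty acid synthase, had one. Any listed peak was found for 8 of the 15, 11 of the 26 and 15 of the 20. Of these, 25%, 27.3% and 13.3% had a CpG island peak, beside 10.9% over all genes with a peak. With 2 or 3 genes each, no difference is read from these shares.

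Genes for RNA processing and protein synthesis were also among the nearest genes. Of 42 splicing factors, 33 had any listed peak and 8 were nearest to a CpG island peak, which is 24.2% of the 33, against 10.9% over all genes with a peak. Among the 8 were the RNA-binding proteins Hnrnpa2b1 (919 bp), Srsf7 (911 bp) and Hnrnpu (734 bp, 1309 bp downstream) and the U2 snRNP protein Sf3b1 (598 bp). Hnrnpl had 2, of 623 bp centred 1739 bp upstream and 210 bp centred 500 bp downstream. Both subunits of the 3' splice site factor U2AF were on the list, U2af2 with 576 bp and U2af1 with 517 bp. Of 47 cytosolic ribosomal protein genes, 30 had any listed peak and 6 a CpG island peak (20% of the 30), among them Rplp0 (897 bp), Rps23 (616 bp) and Rpl38 (142 bp). No interval was computed for the 24.2% or the 20%. With 8 and 6 genes, no difference from the 10.9% is read from them.

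In the lists of the NK lineage and of IL-15 signalling the counts were too small to set apart from the 1.74% over all protein-coding genes. None of 27 NK effector genes had one (upper bound 12.8%), though 10 of the 27 had another listed peak. Of 31 NK identity genes 1 had one, Id2, an inhibitor of E proteins needed for NK development (345 bp, centred 2741 bp upstream), and Runx3 had a peak of 208 bp 53780 bp downstream of its nearest annotated TSS. In the IL-15 receptor and JAK-STAT list it was 1 of 35, the kinase Jak1 (214 bp). The PI3K, AKT and MYC list had 1 of 36, the kinase Akt2 (210 bp), and the survival list 1 of 31, the p53 ligase gene Mdm2 (700 bp). Pim1, Pim2, Pim3, Il2rb, Bcl2, Mcl1, Myc, Prf1 and Gzmb were not the nearest gene of any CpG island peak. Whether these genes had a peak with another label is not described here. None of 12 T cell, 12 B cell, 12 myeloid and 10 erythroid marker genes had a CpG island peak either. Any listed peak was found for 2 T cell, 1 myeloid and 1 erythroid gene. With lists of this size, 1 gene more or less moves a share by several percent.

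At the few signalling feedback genes and chromatin regulators with a CpG island peak within 5000 bp, it lay outside the first 1000 bp. With 3 and 4 genes, no trait of these lists is read from this. Of 34 MAPK and NF-kB feedback genes 3 had a CpG island peak within 5000 bp but none within 1000 bp. That is 23.1% of the 13 with any listed peak, beside 10.9% over all genes with a peak. Dusp6, an ERK phosphatase, had one of 427 bp centred 1510 bp upstream, Fosl2 of 280 bp 3357 bp upstream, and Fosb of 264 bp 1321 bp downstream, both genes for AP-1 subunits. The peak nearest to Jun (568 bp) lay 109233 bp upstream. Of 63 chromatin regulators 4 had one within 5000 bp and none within 1000 bp, which is 16.7% of the 24 with any listed peak. These were the remodellers Chd2 (680 bp, 3810 bp downstream) and Smarca2 (411 bp, 2195 bp downstream), the demethylase Kdm5b (318 bp, 3203 bp upstream) and Arid2, a subunit of PBAF (187 bp, 1849 bp upstream). Arid1b (471 bp, 194906 bp downstream in intron 4) and Bcor (161 bp, 8062 bp upstream) were reached only from farther away. Of 38 imprinted genes 4 had any listed peak and none a CpG island peak (upper bound 9.25%), beside 1.74% over all genes.

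Beyond 1000 bp from a TSS there were 139 CpG island peaks, 93 between genes and 46 in introns, 82 upstream and 57 downstream. Between 1000 and 5000 bp the widest were at Anp32b, a histone chaperone (948 bp, 1535 bp downstream), Eno3, muscle enolase (870 bp, 1133 bp upstream), Kat6b, a histone acetyltransferase (869 bp), and Nsd1, a histone methyltransferase (769 bp). Next came 4931414P19Rik (741 bp), Hnrnpu and Hook2 (734 bp each), Kmt5b (702 bp), Chd2 (680 bp) and Snora65 (633 bp). Beyond 5000 bp there were 76 peaks, with a median width of 371.5 bp (325 to 425). The widest were listed for Zfp958 (1271 bp, 64652 bp downstream), Cirbp, a cold-inducible RNA-binding protein (1265 bp, chr10:80159578-80160842, 7629 bp upstream), Zfp239 (1204 bp, chr6:117878991-117880194, 16711 bp downstream), Slc38a2, a neutral amino acid transporter (1199 bp, 10006 bp upstream), and Mnt (1150 bp, 7377 bp downstream). All 3 Nr4a genes of mouse, which encode orphan nuclear receptors induced by activation, were nearest to a peak over 1000 bp away. It lay 20282 bp upstream of the listed TSS of Nr4a1 (207 bp), 1758 bp upstream for Nr4a2 (254 bp) and 2214 bp upstream for Nr4a3 (198 bp). The Nr4a2 peak is annotated to intron 1 of a transcript of Nr4a2 itself. This trio was picked out after its values were seen.

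Some of the distant peaks contained a start site that the deposited annotation did not use. Of the 134 distant peaks on chromosomes with RefSeq windows, 9 (6.72%, 3.12% to 12.4%) held a RefSeq start inside the interval, against 13 of 998 other distant peaks (1.30%, 0.695% to 2.22%). Within 1000 bp of the centre the counts were 19 of 134 (14.2%, 8.76% to 21.3%) and 39 of 998 (3.91%, 2.79% to 5.30%). In 7 of the 9 the start was that of a long noncoding RNA. Starts of genes without a window were not searched, so further starts may be missed. The peak listed for Zfp239 covers the start of Gm38882, whose CG-dense upstream stretch is printed above, with an observed to expected CpG ratio of 1.14. The peak of 978 bp listed 45220 bp upstream of Ezr covers the start of Gm2885, and that listed 24130 bp downstream of Mia3 (681 bp) the start of Gm34102. Protein-coding starts were found for Zscan25 and Gm33989. At the other extreme, 39 of the 139 distant peaks had neither boundary of any RefSeq gene, start or end, within 5000 bp of the centre.

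Few genes had more than 1 CpG island peak. The 472 peaks had 455 nearest genes, 17 of them with 2 peaks and none with more, and 447 of the peaks (94.7%) were nearest to a protein-coding gene. Cirbp had a peak of 700 bp 322 bp downstream beside the distant one, Slc38a2 one of 355 bp 740 bp downstream, and Cbx8, a Polycomb protein, 2 upstream peaks of 820 and 360 bp. Eif4a1, a translation initiation helicase, had 2 in the first intron, of 505 and 62 bp. Among the 333 peaks within 1000 bp, 259 (77.8%, 72.9% to 82.1%) were the only listed peak of their gene, compared with 93 of the 151 other peaks in that window (61.6%, 53.3% to 69.4%). A promoter peak of the same gene was listed for 41 of the 333 (12.3%, 8.98% to 16.3%) and for 37 of the 151 (24.5%, 17.9% to 32.2%). All 333 were centred past 100 bp and labelled intron, including the 140 that cover the TSS. Other labels occur there too: 91 promoter peaks were centred 200 to 400 bp downstream. What part the labels have in these shares was not tested.

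Another listed peak lay within 1000 bp, edge to edge, of 73 CpG island peaks (15.5%, 12.3% to 19%). For the other intron and intergenic peaks the share was 13.3%, inside that interval, and for all listed peaks 11.7%, below it. The neighbour was a promoter peak in 45 cases, an intron peak in 15, an intergenic peak in 11 and a peak in a 5' untranslated region in 2, and in 9 it carried the CpG label too. It had the same nearest gene in 66 cases. No gap was shorter than 203 bp for these peaks, or 200 bp in the whole list.

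The windows under CpG island peaks were close to those under promoter peaks in base composition. In the 187 RefSeq windows that they overlap, the median GC content was 61.3% and the median observed to expected CpG ratio 0.860, against 63.3% and 0.871 in the 2899 windows under promoter peaks, 55.7% and 0.610 in the 75 under other intron and intergenic peaks, and 52.7% and 0.384 in all 32851 windows. The windows are not the peaks themselves, and only peaks close to an annotated start contribute. The CpG label is given to sequence rich in G, C and CG. The difference from peaks without the label and from all windows is thus favoured by the choice of peaks, and nothing is read from it. The core ACGT, on either strand, was in 62.0% (54.7% to 69.0%) of the 187 windows, 55.5% of those under promoter peaks and 30.9% of all windows. CCACG was in 67.4% (60.2% to 74.0%), 58.3% and 32.8%. The interval for CCACG lies just above the promoter share, and that for ACGT contains it. The 187 windows lie under 161 peaks and are not independent, so nothing is read from the narrow margin for CCACG.

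For the 2 motifs with no CG, the interval for the 187 windows held the share of all windows. CCAAT, the box bound by NF-Y, was in 39.6% (32.5% to 47.0%) of the 187 windows, 41.0% of those under promoter peaks and 37.4% of all windows. TGTGGT, a RUNX site, was in 14.4% (9.74% to 20.3%), 10.6% and 16.8%. The motifs that hold a CG were more frequent under both kinds of peak than in all windows. For the CpG island peaks the label favours such motifs, so nothing is read from their excess over all windows. GGGCGG, the GC box of SP factors, was in 66.8%, 70.8% and 35.7%. CCGGAA, an ETS site, was in 36.9% (29.97% to 44.25%), 44.5% and 14.9%, so its interval lies just below the promoter share. With windows that are not independent and 11 motifs counted, nothing is read from this narrow margin either. CGCATGCG, the NRF1 core, was in 6.95%, 5.45% and 1.87%. The E-box CACGTG, which contains ACGT, was in 14.4%, 14% and 7.15%, and the cAMP element TGACGTCA, which also contains it, in 4.81%, 6.28% and 1.79%. TGACGTGG, which contains ACGT too, was in 3.21% (1.19% to 6.85%), 1.97% and 0.676%. The gapped element was in 4 of 187 (2.14%, 0.586% to 5.39%), 9 of 2899 (0.310%) and 39 of 32851 (0.119%). Of those 4 windows, 2 share the site between Gm39859 and Hnrnpa3.

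**Figure D5:**
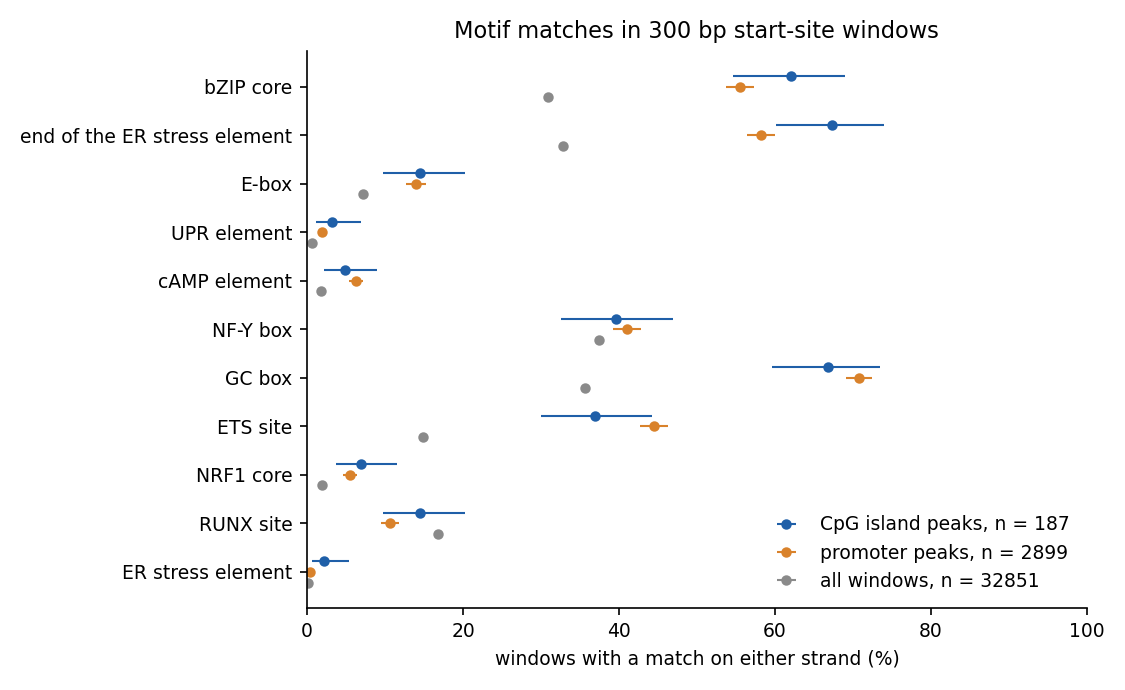
Share of 300 bp RefSeq windows with a match on either strand (horizontal axis, %, with 95% exact binomial intervals) for 11 motifs, in 187 windows under CpG island peaks, 2899 under promoter peaks and all 32851 windows. The bZIP core is ACGT, and the end of the ER stress element is CCACG. The first 2 groups lie close together for most motifs.

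Counted by peak, 8 of 161 CpG island peaks that overlap a window (4.97%, 2.17% to 9.56%) held the gapped element or TGACGTGG, and 57 of 2052 promoter peaks did (2.78%, 2.11% to 3.58%). The intervals overlap. The 8 peaks had a median width of 1542 bp and none was under 708 bp (Mga), while the rest had a median of 553 bp. Promoter peaks with such a match had a median of 544 bp and those without 423 bp. The 8 included the 3 widest of all CpG island peaks, those of Canx, Gm6793 and Pdia6, whose gapped elements are printed above. A wider peak reaches more windows, and its part in these counts was not tested. Lrrc59, a ribosome-binding membrane protein of the ER, had a peak of 1408 bp (chr11:94629429-94630836), and Mga, a MAX-binding repressor, one of chr2:119897061-119897768.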

How the data were processed

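Chromatin of 4 libraries (2 XBP1s immunoprecipitations, 2 inputs) was sequenced as paired-end reads, per the labels' protocols. The submitters' processing notes list Bowtie2 (2.4.5), Trim Galore (0.6.7), MACS2 (2.2.7.1), FastQC (0.11.9) and HOMER (4.11 as well as 4.11.1), and the builds mm10 and GRCm38, without the role of each. Per the file header, the table is HOMER's annotation of 1 combined set of intervals. No source used here says how calls were combined. The peak score that the authors deposited is 0 throughout, and width (end minus start plus 1) was used in its place. Distance to the TSS, nearest gene and annotation are the authors' deposited values.

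Peaks whose detailed annotation begins with "CpG" were taken from the table. They were set beside the 1173 other intron and intergenic peaks and the 2571 promoter peaks by counts, medians and quartiles, with exact Clopper-Pearson intervals for shares and order-statistic intervals for medians (95%). These cover counting error only. No test was run, since peaks of 1 list are not replicates. Entrez numbers of all 472 peaks matched a RefSeq table of GRCm38.p6. Host genes of introns were found by transcript identifier. Overlap with promoter windows (250 bases before to 50 after a start, 32851 windows of 27025 genes) needed at least 1 bp. A chromosome without windows held 12 peaks, and the nearest gene had a window for 374 of the 472. Motifs were counted on both strands. Of 674 entries in 22 gene lists, 672 were distinct genes within their list, 2 matched through a synonym. The members and lists were chosen with earlier results of these data known.

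Named genes were those of the 12 widest near peaks (up to 1000 bp from a TSS), the 10 widest from 1000 to 5000 bp and the 10 widest beyond, genes with 2 or more peaks (up to 12), up to 5 per list with the widest peak, and the listed IL-15 and effector genes. Some of these are not reported here, and further members of a list, peaks with a motif match, and examples of host genes and start sites were added after their values were seen. Counting was tested on simulated intervals and sequences. Scripts ran in Python 3.11.15, with SciPy 1.17.1 for intervals, pandas 2.3.3 and NumPy 2.4.6 for tables and matplotlib 3.10.9 for plots. Alternatives were minimum width, distance window, gap, overlap, gene type source and 1 peak per gene.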

Additional observations from a re-analysis of the deposited data

How the results depend on the processing

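Of 72 alternative settings, 53 kept the value within its 95% interval and 19 moved it. None of the 11 for motifs moved. Each value is a single share, median or count with no direction, so a reversal was not possible. With intervals of at least 500 bp the CpG island peaks were 11.7% of the list. The share within a window around the TSS was 57.0% at 500 bp and 78.6% at 2000 bp. Their median width was 435.5 bp for intervals of at least 200 bp, 435 bp within 1000 bp of the TSS and 371.5 bp beyond 5000 bp. For the other intron and intergenic peaks it was 335 bp for intervals of at least 200 bp, 329 bp for the widest peak per gene and 359 bp within 1000 bp. Beyond 1000 bp, 69.6% of the intronic peaks were in intron 1. The share with a neighbour was 11.4% for a gap of 500 bp and 19.5% for 3000 bp. With an overlap of at least 100 bp, 21.5% overlapped a RefSeq window. Of 32 gene list alternatives 6 moved, among them these: within 1000 bp the MAPK and NF-kB, chromatin and NK identity lists had 0 genes each and the lymphoid transcription factors 1, and at any distance the NK identity list had 2.

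The width comparison within 1000 bp was also run with settings chosen after seeing the data. Without the ER and secretory genes the medians were 424 bp and 344 bp, for intervals of at least 200 bp 490 bp and 404 bp, and between 100 and 500 bp 462 bp and 430 bp. Leaving out a library was not possible, since the list holds no value per library. No paired analysis was possible because the result comes from no test. Depth is unknown, and a gene without a listed peak is not shown to lack XBP1s.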
